A study of Mus musculus with 32 samples.

Results

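A set of 199 genes whose transcript level in interscapular brown adipose tissue (iBAT) fitted a wave with 2 peaks a day better than a wave with 1 is described here. The members were selected on the measured time course itself, by a rule applied to all 32 libraries. Counts were scaled to the library total (CPM, counts per 1000000 counts), and genes with a mean of at least 5 CPM were kept, which left 10303 of 50686 genes. For each gene the share of the total variation of log2(CPM + 1) taken by a 12 h cosine wave (the 12 h share) was set against the share taken by a 24 h wave. The 12 h share was the larger in 2798 genes, the 200 with the highest 12 h share were taken, and 1 of them (Rps27rt) was dropped because its symbol starts with that of a ribosomal protein. The rule likewise leaves out heat-shock (Hsp), Dnaj, Cct, Pdia, proteasome, collagen, Ndu and mitochondrially encoded genes.

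All mice were male C57BL/6J animals of 10 weeks, fed chow, housed at 22 °C under equal spans of light and dark, and killed without fasting. By their labels the 8 groups differ in the time of death and the sequencing lane: Zeitgeber time (ZT, hours after lights on) 0, 3, 6, 9, 12, 15, 18 and 21, with 4 mice each, 1 library per mouse. Each mouse gave 1 time point, so that a daily course is pieced together from different animals. Sequencing lane 2 took ZT0 to ZT6, lane 3 took ZT9 to ZT15 and lane 4 the remaining pair of times, so that lane and time of day cannot be told apart between lanes. Library totals ran from 16300770 to 18254659. Brown adipocyte markers including Ucp1 summed to between 10296 and 15484 CPM, while 14 skeletal muscle markers ran from 4.67 CPM at ZT6 to 9087 CPM at ZT15, and reached 1000 CPM in 15 libraries. In whole tissue, fewer cells of a type and less RNA per cell cannot be told apart.

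Most rhythmic transcripts of mammalian tissues follow the circadian clock, a loop of transcriptional activators and their own repressors that turns once in 24 h. A smaller group of transcripts runs through 2 cycles in that time, and in mouse liver such genes are known to include many that handle protein folding, secretion and RNA. Brown fat burns lipids and glucose to make heat, and its metabolism changes between the light phase, when mice mostly rest, and the dark phase, when they mostly eat and move.

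The members were divided by the sampled times that lay nearest to the peaks of their 12 h wave. Of the 199 genes, 15 peaked around ZT0 and ZT12, 78 around ZT3 and ZT15, 68 around ZT6 and ZT18, and 38 around ZT9 and ZT21. The 12 h share of the members ran from 0.307 to 0.517 with a median of 0.348, beside 0.0673 for all genes kept. Their 24 h share had a median of 0.0854, and the spread between mice of the same time point took a median of 0.415 of the variation. The waves were shallow: the 12 h amplitude on the log2(CPM + 1) scale had a median of 0.17 and ran from 0.05 (Prkag1, a subunit of AMP-activated kinase) to 0.64 (Gm20721). In CPM, the mean of the peak pair stood at a median of 1.24 times the mean of the trough pair (the times 6 h later). These values were used to choose the genes, and they are given without a test.

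**Figure D1:**
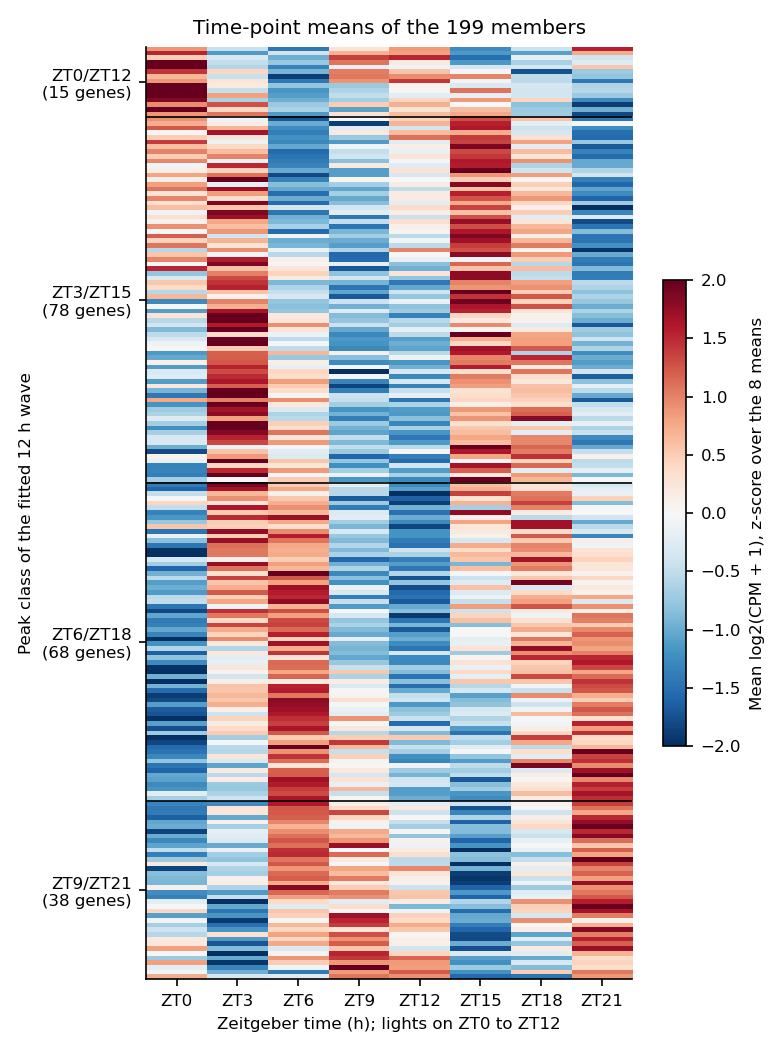
Time-point means of log2(CPM + 1) of the 199 members (rows, z-score of each gene over its 8 means, red high and blue low) by Zeitgeber time (columns), grouped by peak class and ordered by fitted peak time. Each class shows a high band near each of its peak times, with 15, 78, 68 and 38 genes from top to bottom.

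At the limit, Bmi1 and Pgm3 were the last genes taken, with 12 h shares of 0.3076 and 0.30705. Bmi1 encodes a Polycomb subunit and Pgm3 an enzyme of amino sugar synthesis. Xpo4, a nuclear transport receptor, and Jmjd1c, of the histone demethylase family, were the first ones left out, with 0.3061 and 0.3057. When 1 library was left out and the rule applied again, between 141 and 178 of the 199 genes were chosen once more. Without the 15 libraries richest in muscle markers, 72 of the 199 were. This left 1 to 3 mice per time point, and leaving out as many other libraries was not tried, so the part of muscle was not tested.

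Whether each member had 2 peaks was read from its 8 time-point means of log2(CPM + 1). Exactly 2 local maxima, 9 to 15 h apart, were found in 174 of the 199 members, against a background of 35.5% of all genes kept. Of the others, 23 had 3 maxima and 2 had maxima at another distance. The maxima sat exactly at the class's peak pair in 64 members (background 10.2%). Each of the peak means lay above both trough means in 193 (background 36.3%). In 13 members the 8 mice of the peak pair all lay above the 8 mice of the trough pair (background 0.194%), and in 7 when mitochondrial genes were left out of the library totals (0.126%), so that the statements on single genes without overlap hold for CPM over all genes. Since the same values were used for the choice, these counts describe the form of the curves and support nothing further. Most members had 2 maxima spaced in this way, with some overlap between the mice of the peaks and those of the troughs.

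The peaks were not equally high. The rise over the trough pair was larger at the light-phase peak in 114 members and larger at the dark-phase peak in 85. It was over 2 times as large at one peak as at the other in 65. The highest of the 8 means fell at ZT3 in 50 members, at ZT15 in 39, at ZT6 in 35 and at ZT21 in 29, and at ZT12 in only 3. In the ZT6/ZT18 class the light-phase peak was the higher in 48 of 68 genes, and in the ZT9/ZT21 class the dark-phase peak in 24 of 38.

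**Figure D2:**
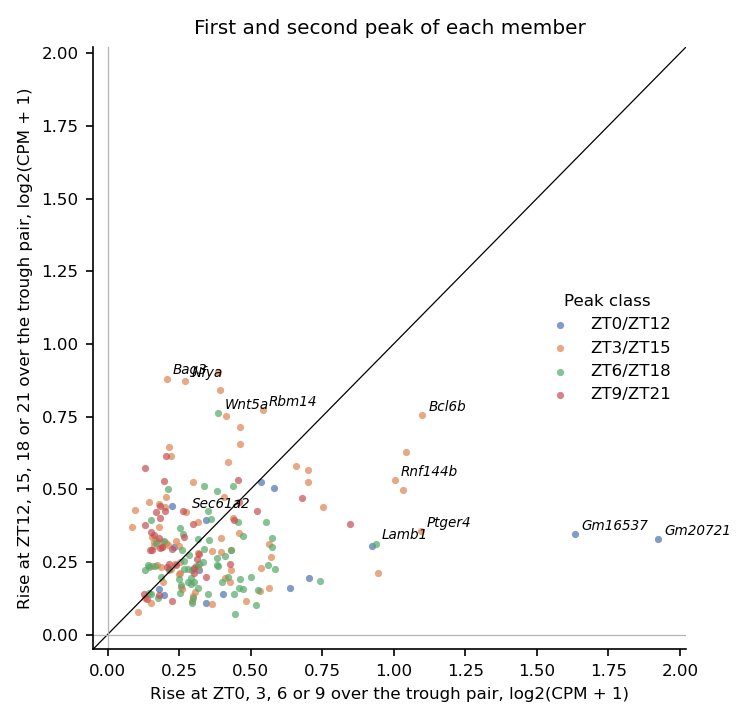
Rise of the light-phase peak (horizontal axis) and of the dark-phase peak (vertical axis) over the mean of the trough pair, on the log2(CPM + 1) scale, 1 point per member coloured by peak class, with the line of equal rises. All 199 points lie above 0 on both axes. Gm20721 and Gm16537 lie far to the right, with light-phase rises of 1.92 and 1.63.

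Promoters are shown for the leading members of 3 classes (Rbm15, Sec61a2 and Oxsm), for Ccnk, next in 12 h share, and for Bag3 and Hsf2, the members from the heat-shock list. RefSeq promoter windows (GRCm38.p6, from 250 bases before to 50 after the start) were found for 158 of the 199 members. The windows of Rbm15 (chr3:107333240-107333539, minus strand), Sec61a2 (chr2:5895383-5895682, minus strand), Ccnk (chr12:108179488-108179787, plus strand), Oxsm (chr14:16249759-16250058, minus strand, 1 of 3 windows), Bag3 (chr7:128523333-128523632, plus strand) and Hsf2 (chr10:57486135-57486434, plus strand) follow, with matches to the 8 motifs searched, on either strand, in capitals.
Rbm15: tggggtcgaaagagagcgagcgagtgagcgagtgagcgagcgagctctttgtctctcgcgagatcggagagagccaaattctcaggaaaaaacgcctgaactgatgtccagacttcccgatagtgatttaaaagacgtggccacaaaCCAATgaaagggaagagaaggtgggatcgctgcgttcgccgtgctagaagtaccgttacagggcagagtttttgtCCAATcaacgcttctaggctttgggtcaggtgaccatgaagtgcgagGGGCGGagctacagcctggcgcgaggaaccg
Sec61a2: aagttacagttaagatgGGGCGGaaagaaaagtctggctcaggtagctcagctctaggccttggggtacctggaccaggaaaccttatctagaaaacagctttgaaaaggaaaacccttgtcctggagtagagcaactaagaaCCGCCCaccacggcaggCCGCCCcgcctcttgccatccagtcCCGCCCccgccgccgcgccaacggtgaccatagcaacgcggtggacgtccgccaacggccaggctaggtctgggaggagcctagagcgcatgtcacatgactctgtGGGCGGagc
Ccnk: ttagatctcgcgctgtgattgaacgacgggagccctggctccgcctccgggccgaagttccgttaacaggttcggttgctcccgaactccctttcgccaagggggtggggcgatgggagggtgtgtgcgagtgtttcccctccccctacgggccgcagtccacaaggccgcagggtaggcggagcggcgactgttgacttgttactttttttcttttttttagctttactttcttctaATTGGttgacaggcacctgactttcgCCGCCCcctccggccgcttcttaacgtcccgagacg
Oxsm: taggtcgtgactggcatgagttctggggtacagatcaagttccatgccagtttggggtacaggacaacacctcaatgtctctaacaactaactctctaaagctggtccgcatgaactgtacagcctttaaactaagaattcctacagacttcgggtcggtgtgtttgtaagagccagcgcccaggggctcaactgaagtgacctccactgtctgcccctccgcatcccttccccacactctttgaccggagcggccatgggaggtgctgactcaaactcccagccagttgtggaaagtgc
Bag3: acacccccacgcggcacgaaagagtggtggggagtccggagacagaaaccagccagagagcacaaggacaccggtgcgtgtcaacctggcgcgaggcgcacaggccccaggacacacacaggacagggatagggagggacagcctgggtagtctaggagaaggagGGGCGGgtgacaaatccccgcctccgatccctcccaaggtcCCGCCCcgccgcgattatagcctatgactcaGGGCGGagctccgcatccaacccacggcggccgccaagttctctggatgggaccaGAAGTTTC
Hsf2: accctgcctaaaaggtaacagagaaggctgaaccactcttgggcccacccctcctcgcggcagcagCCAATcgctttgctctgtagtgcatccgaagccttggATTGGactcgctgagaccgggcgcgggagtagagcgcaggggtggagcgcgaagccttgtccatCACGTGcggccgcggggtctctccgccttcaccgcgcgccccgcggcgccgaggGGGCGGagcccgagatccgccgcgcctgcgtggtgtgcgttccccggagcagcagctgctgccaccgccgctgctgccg

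Both strands were searched for a heat-shock element (TTCNNGAA or GAANNTTC), a cAMP response element (TGACGTCA) and an unfolded protein response element (TGACGTGG). They were also searched for the clock's E-box, spelled CACGTG. The site of ETS factors was spelled CCGGAAG, the GC box was spelled GGGCGG, and the last motif was the CCAAT box, spelled as its name. Rbm15 and Ccnk held a CCAAT box and a GC box, Sec61a2 held GC boxes alone, and Bag3 held GC boxes and GAANNTTC, the last match lying after the start. Hsf2 held an E-box, CCAAT boxes and a GC box, and the window of Oxsm shown, the one that spans the annotated start of the gene, held no match, whereas its other windows held 3 and 2 GC boxes. Over the 198 windows of members, GC boxes were found in 71.2% (64.7% of all windows of genes kept) and CCAAT boxes in 30.8% (37.2%). An E-box, the element bound by the clock activators, was found in 11.1% (10.3%). The cAMP response element was found in 5.05% (3.10%), and TTCNNGAA and GAANNTTC in 5.05% (6.81%) and 5.56% (5.52%). The members' shares lay within 7 percentage points of the background for each of the 8 motifs. None of these shares was tested.

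The ZT3/ZT15 class was the largest and held the highest 12 h shares. Its leading gene was Sec61a2, a variant of the alpha subunit of the channel through which new proteins enter the endoplasmic reticulum (ER), located at chr2:5870987-5895432 (GRCm38, as all gene positions here). In the light phase its level was 28.2, 35.6, 30.0 and 29.8 CPM in the 4 mice of ZT0, 30.7, 34.1, 30.6 and 30.8 at ZT3, 26.7, 27.8, 23.0 and 29.0 at ZT6 and 27.9, 25.0, 27.2 and 26.1 at ZT9. In the dark phase it was 25.9, 30.0, 30.0 and 31.4 CPM at ZT12, 34.0, 36.5, 34.6 and 35.0 at ZT15, 32.5, 31.6, 30.8 and 31.2 at ZT18 and 27.2, 22.5, 28.9 and 23.0 at ZT21. All mice of ZT3 and ZT15 lay above all mice of ZT9 and ZT21, and the dark-phase peak was the higher (35.0 ± 1.07 CPM at ZT15 against 31.6 ± 1.67 at ZT3, SD, n = 4). Exons of Sec61a2 share 19.9% of their bases with Nudt5 on the opposite strand, and whether the counting used the strand was not given in the sources used here.

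All 5 members that form kinases of RNA polymerase II or belong to their cyclin family fell in this class, a grouping made after the values were seen. Ccnk, the cyclin that activates Cdk12, had the next highest 12 h share of all members (0.502). It stood at 25.2, 24.5, 24.6 and 24.9 CPM at ZT3 and 29.2, 23.5, 26.2 and 26.6 at ZT15, against 17.8, 21.6, 24.0 and 20.5 at ZT9 and 21.9, 19.7, 20.4 and 21.4 at ZT21. All mice of ZT3 lay above those of ZT9 and ZT21, while the lowest mouse of ZT15 lay below the highest of ZT9. The light-phase maximum lay at ZT0 (25.5 ± 0.563 CPM, SD, n = 4), a little above ZT3. Cdk12 itself had 3 maxima and folds of 1.17 at ZT3 and 1.17 at ZT15 over its trough mean. Ccnt1 and Ccnt2, cyclins of the elongation kinase P-TEFb, had 12 h amplitudes of 0.11 and 0.15 (log2), and Ccnl2, a cyclin linked to splicing, 0.29. Ccnl2 had 282 ± 18.4 CPM at ZT15 and 262 ± 34.0 at ZT0, its light-phase maximum, while ZT3 (210.0 ± 26.8) lay no higher than ZT9 (213 ± 32.9), with 154 ± 15.3 at ZT21 (SD, n = 4). Ccnt2 likewise had its light-phase maximum at ZT0.

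RNA-binding proteins and splicing factors gave 16 members, 8 of them in the ZT3/ZT15 class. Taf15, an RNA-binding partner of the transcription machinery, stood at 1.25 times its trough mean at ZT3 and 1.18 times at ZT15. Rbm14, an RNA-binding coactivator, had 19.2 ± 2.60 CPM at ZT3, 22.8 ± 3.78 at ZT15, 15.9 ± 3.72 at ZT9 and 10.4 ± 0.980 at ZT21 (SD, n = 4). Tra2a, which regulates exon choice, and Sf1, which binds the branch point, had amplitudes of 0.21 and 0.12. Hnrnpdl, another splicing regulator, peaked later, with a fitted peak at 6.98 h. Spty2d1, a histone chaperone, had 23.5 ± 4.60 CPM at ZT3 and 19.3 ± 1.46 at ZT15, with all mice of both times above those of ZT9 and ZT21. Ulk1, the kinase that starts autophagy, had folds of 1.34 at ZT3 and 1.15 at ZT15. Rbm14 had its light-phase maximum at ZT0 (19.6 ± 3.85 CPM), Hnrnpdl its dark-phase maximum at ZT21, and Spty2d1 and Ulk1 theirs at ZT18, hardly above ZT15.

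Rel, the gene of the NF-kB subunit c-Rel, was picked after its values were seen because its peak and trough mice did not overlap. At ZT0, ZT3, ZT6 and ZT9 the mice had 11.1, 12.2, 11.5 and 10.7, then 13.3, 10.7, 16.9 and 17.9, then 9.46, 9.31, 9.15 and 9.05, then 6.17, 6.72, 10.1 and 8.53 CPM. From ZT12 to ZT21 they had 8.11, 7.58, 8.77 and 9.61, then 16.7, 11.3, 10.8 and 12.4, then 9.71, 11.4, 13.7 and 17.1, then 8.61, 9.04, 10.6 and 9.01 CPM. The mice of ZT3 and ZT15 lay above those of ZT9 and ZT21 by a small gap, and ZT18 was as high as ZT15. The partner subunit gene Rela had a fitted peak at 4.89 h, and Map3k7 and Fadd, which relay signals to NF-kB and to cell death, belonged to the ZT9/ZT21 class, so that the 4 members of this pathway did not share a phase.

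The steepest waves of the class were those of Bcl6b, Rnf144b and Gprin3. Bcl6b, a transcriptional repressor known from endothelial and immune cells, had an amplitude of 0.57 ± 0.14 (SE, log2 scale). Its level was 27.5, 26.7, 55.4 and 62.4 CPM at ZT3 and 42.6, 19.2, 32.0 and 36.2 at ZT15, against 12.9, 13.2, 34.7 and 30.1 at ZT9 and 13.8, 13.1, 21.6 and 16.3 at ZT21, with wide overlap between mice. Its dark-phase maximum lay at ZT18 and its lowest mean at ZT12. Rnf144b, a ubiquitin ligase, had 84.0, 48.6, 83.4 and 81.0 CPM at ZT3 and 39.6, 46.4, 67.1 and 59.3 at ZT15, against 20.3, 26.3, 52.3 and 41.2 at ZT9 and 42.3, 38.94, 32.3 and 42.5 at ZT21. At both peaks 1 or more mice overlapped with the troughs. Gprin3, a protein that binds G proteins, had folds of 2.09 and 1.63.

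**Figure D3:**
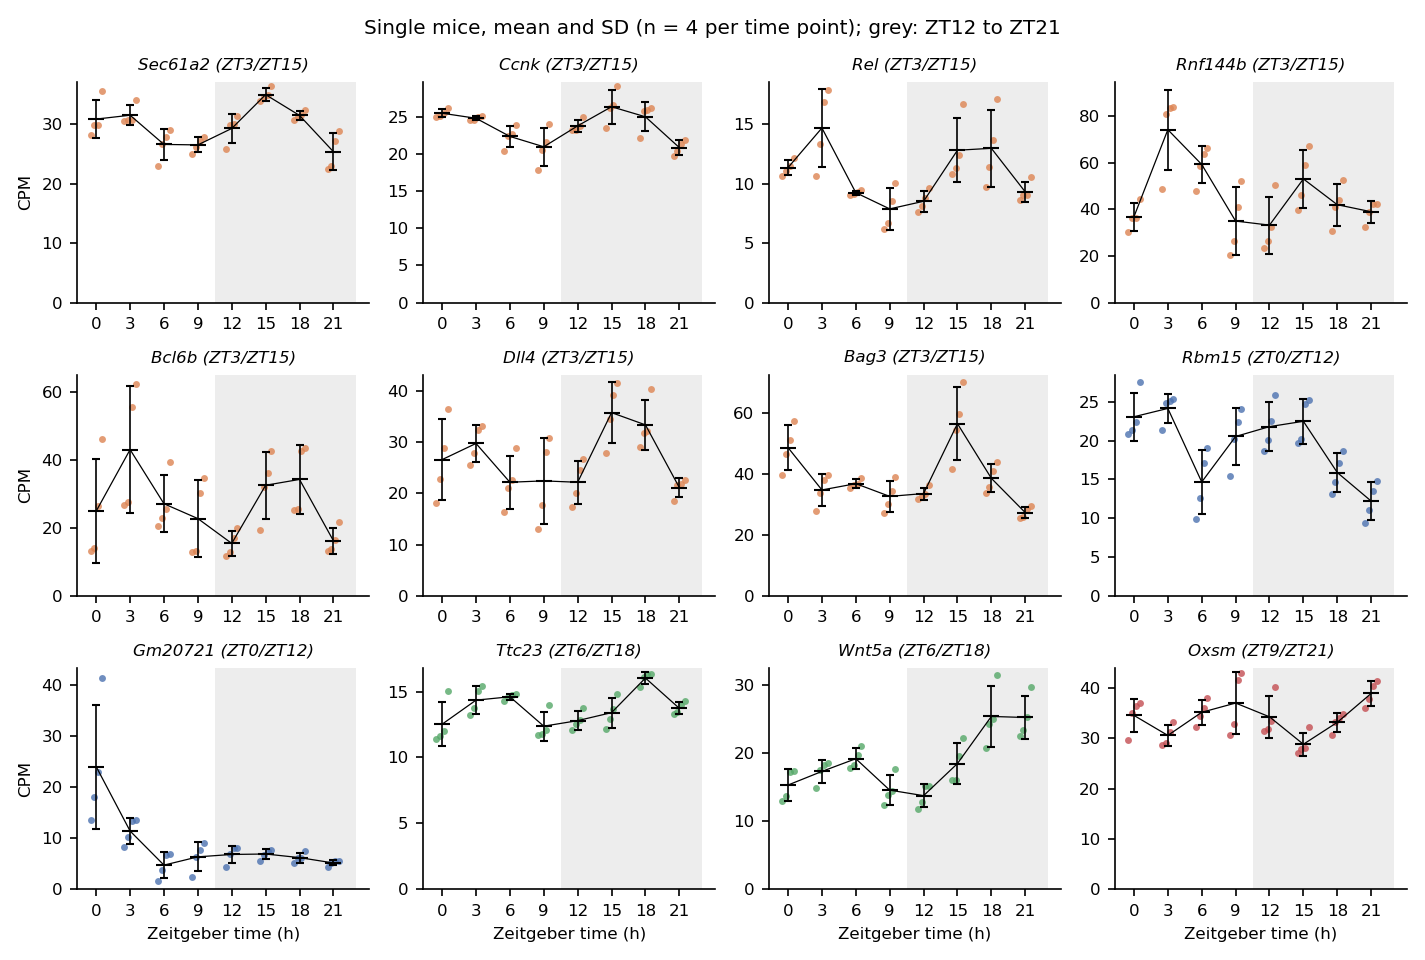
CPM of 12 members by Zeitgeber time, each dot 1 mouse (4 per time point), horizontal ticks the mean, bars the SD, lines joining the means; the colour gives the peak class and grey marks ZT12 to ZT21. Sec61a2 and Ttc23 show a narrow spread around shallow peaks, Bcl6b a wide one, and Gm20721 is high at ZT0 and ZT3 with no clear dark-phase peak.

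Bag3, a co-chaperone that works with heat-shock protein 70, was 1 of 2 members from a list of 53 heat-shock genes. The mice of ZT15 had 70.5, 41.7, 54.5 and 59.8 CPM and those of ZT0 46.6, 51.3, 57.4 and 39.7, whereas ZT3, the other time of its class, gave 27.9, 33.8, 39.7 and 38.0, overlapping with ZT9 (27.2, 30.2, 39.0 and 34.5). Its light-phase maximum thus lay at ZT0, and the course had 3 maxima. The other member of this list was Hsf2, a heat-shock transcription factor of the ZT6/ZT18 class, with an amplitude of 0.16 and with 3 maxima as well. Rhob, a small GTPase induced early after stimulation, was the only member of 38 early response genes tested, with folds of 1.33 at ZT3 and 1.41 at ZT15.

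Dll4, the Notch ligand of sprouting vessels, had 27.8, 25.5, 32.3 and 33.2 CPM at ZT3, 41.4, 27.9, 34.4 and 39.1 at ZT15, 13.1, 17.7, 30.8 and 28.1 at ZT9 and 21.9, 18.5, 22.5 and 21.6 at ZT21. The mice of ZT9 reached into the ranges of both ZT3 and ZT15, while ZT21 lay below both. Nrarp, a feedback inhibitor of Notch, had folds of 2.19 at ZT3 and 1.52 at ZT15 with its dark-phase maximum at ZT18, and 79.4% of its exonic bases lie opposite to Gm38287, a gene with a mean of 0.0326 CPM. Nrp2, a receptor for semaphorins and vascular growth factors, had 179 ± 21.3 CPM at ZT6 and 159.9 ± 21.7 at ZT18, against 139 ± 48.2 at ZT0 and 112 ± 26.4 at ZT12 (SD, n = 4), and its highest mean was that of ZT3 (182 ± 16.8 CPM). Lama4, a laminin chain of vessel basement membranes, had folds of 1.22 at ZT3 and 1.46 at ZT15, but its light-phase maximum lay at ZT0 (154 ± 8.56 CPM against 137 ± 8.48 at ZT3), and 3 mice of ZT3 and 1 of ZT15 lay within the range of the troughs.

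None of the 8 endothelial markers (Pecam1, Cdh5 and others) was a member, but their summed level was also higher on average at ZT3 and ZT15 than at ZT9 and ZT21. Its means were 1114 CPM at ZT3 and 1067 at ZT15, against 964 at ZT9 and 959 at ZT21. The means of ZT0 (1082.5 CPM) and ZT18 (1088 CPM) lay slightly above ZT15, the lowest was that of ZT12 (905 CPM), and single mice ran from 815 to 1280 CPM. A 12 h wave took 0.229 of its variation, with a fitted peak at 4.06 h. Over the 32 mice, the deviations of this sum from the time-point means had a median correlation of 0.36 with those of the ZT3/ZT15 members, 0.33 with ZT6/ZT18, 0.05 with ZT0/ZT12 and 0.00 with ZT9/ZT21, beside 0.29 with all genes kept. Over all members it was 0.27, no higher than that background. The highest value was that of Sf1 (0.89), followed by Dll4 (0.83), and Bcl6b had 0.70. The same medians are given for other measures in the order ZT0/ZT12, ZT3/ZT15, ZT6/ZT18 and ZT9/ZT21. Brown adipocyte markers had 0.32, -0.13, -0.22 and 0.11 (-0.02 with all genes kept). Macrophage markers had -0.16, 0.28, 0.315 and -0.09 (0.19), stromal markers -0.19, 0.28, 0.32 and -0.05 (0.18), and white adipocyte markers -0.01, 0.22, 0.28 and -0.17 (0.16). Lymphoid markers had 0.02, 0.28, 0.28 and -0.04 (0.19), and blood markers -0.11, 0.20, 0.16 and -0.11 (0.11). For these lists and the endothelial one, the ZT3/ZT15 and ZT6/ZT18 classes lay above the value for all genes and the other classes below it. Brown adipocyte markers did not show this order. The mitochondrial share of counts had 0.08, 0.33, 0.19 and -0.04 (0.17). The log2 library total had -0.08, -0.30, -0.11 and 0.21 (-0.07), and a 12 h wave took 0.174 of its variation. These points share libraries and their scaling, and the part of cell makeup, mitochondrial share or depth in the members' courses was not tested. Skeletal muscle markers, whose sum ranged most widely between mice, had a median correlation of -0.0075 with the members (0.0117 with all genes kept).

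The ZT6/ZT18 class was led by Ttc23, a tetratricopeptide-repeat protein with no window in the promoter table, located at chr7:67647410-67762912. The light-phase mice had 11.4, 12.0, 11.7 and 15.0 CPM at ZT0, 13.2, 15.0, 13.7 and 15.4 at ZT3, 14.3, 14.6, 14.7 and 14.8 at ZT6 and 12.1, 11.7, 14.0 and 11.7 at ZT9. The dark-phase mice had 12.9, 12.1, 12.5 and 13.7 CPM at ZT12, 13.7, 14.9, 12.2 and 12.9 at ZT15, 16.1, 16.4, 16.3 and 15.3 at ZT18 and 13.4, 14.3, 13.3 and 14.0 at ZT21. Both peaks stood only a few CPM above the troughs, and 1 mouse of ZT0 lay within the range of the peaks. Wnt5a, a secreted Wnt ligand picked after its values were seen, had a deeper wave, with 19.6, 18.2, 21.0 and 17.7 CPM at ZT6 and 20.7, 31.4, 24.2 and 25.0 at ZT18, against 13.0, 13.6, 17.3 and 17.2 at ZT0 and 15.2, 12.8, 15.1 and 11.7 at ZT12. Its peak and trough mice did not overlap, and ZT21 was as high as ZT18 (25.2, 29.6, 23.4 and 22.5 CPM). Its 24 h share (0.359) was nearly as large as its 12 h share (0.368), and its dark-phase peak was the higher.

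Usp12, a deubiquitinase, had folds of 1.20 and 1.11 at ZT6 and ZT18. Gtf3c1, the largest subunit of the RNA polymerase III factor TFIIIC, had 74.1 ± 4.84 CPM at ZT6 and 71.1 ± 3.69 at ZT18, against 57.7 ± 4.41 at ZT0 and 64.1 ± 2.70 at ZT12, with no overlap between the 8 and 8 mice, and 71.5 ± 1.97 at ZT21. Sfmbt1, a chromatin protein, and Sufu, an inhibitor of hedgehog signalling, had light-phase folds of 1.29 and 1.36 and dark-phase folds of 1.26 and 1.15. Thtpa, which cleaves thiamine triphosphate, shares 56.8% of its exonic bases with Gm20687 on the same strand, a gene with no counts in any library, and 14.6% with Ap1g2 on the opposite strand (mean 35.6 CPM). Both subunit genes of the histone chaperone FACT, Ssrp1 and Supt16, were members of this class with small amplitudes (0.09 and 0.08). Of 4 DNA repair members, Msh6, Xpc and Ercc5 belonged to this class and Polk to ZT3/ZT15. The fitted peak of Polk (4.49 h) lay at the border of these classes. Lamb1, a laminin chain, reached 153 ± 24.0 CPM at ZT6 against 69.7 ± 24.3 at ZT0 and 92.9 ± 16.3 at ZT12, with 99.1 ± 19.1 at ZT18 and a higher mean of 114 ± 21.3 at ZT21. Usp36, a nucleolar deubiquitinase, had folds of 1.44 and 1.07 and 3 maxima. In Usp12, Sfmbt1, Sufu, Thtpa, Ssrp1 and Supt16 the dark-phase maximum lay at ZT21, not at ZT18.

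**Figure D4:**
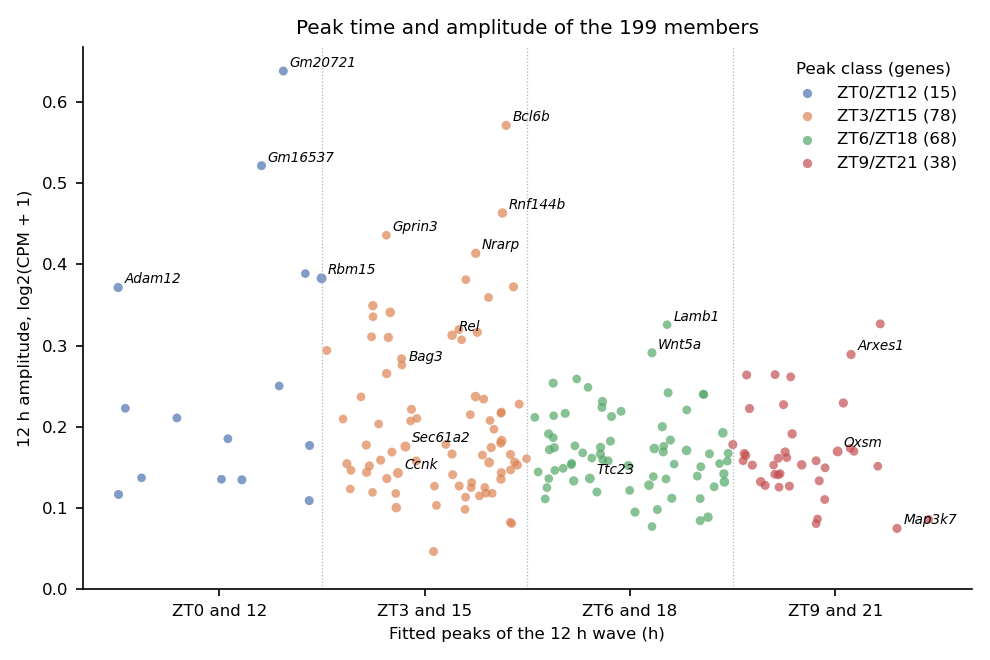
Fitted peak times of the 12 h wave (horizontal axis, both daily peaks named) and its amplitude on the log2(CPM + 1) scale (vertical axis) for the 199 members, coloured by peak class; larger points have a higher 12 h share and dotted lines part the classes. Most points lie below an amplitude of 0.3, with Gm20721 (0.64), Bcl6b (0.57) and Gm16537 (0.52) at the top.

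The ZT9/ZT21 class was led by Oxsm, the condensing enzyme of mitochondrial fatty acid synthesis, located at chr14:16238652-16249808. Its light-phase values were 36.3, 29.7, 37.1 and 35.1 CPM at ZT0, 33.3, 29.0, 28.7 and 31.3 at ZT3, 38.1, 32.2, 34.5 and 35.9 at ZT6 and 42.9, 41.6, 30.7 and 32.8 at ZT9. Its dark-phase values were 40.3, 33.5, 31.8 and 31.4 CPM at ZT12, 27.9, 32.2, 28.1 and 27.0 at ZT15, 30.6, 34.1, 33.2 and 34.8 at ZT18 and 40.5, 37.7, 36.1 and 41.4 at ZT21. ZT21 lay above ZT3 and ZT15 in every mouse, whereas the mice of ZT9 overlapped with ZT3. Of 6 members that act in mitochondria, 4 belonged to this class, among them Ccdc51, a subunit of a mitochondrial potassium channel. Ccdc51 had 10.2 ± 0.282 CPM at ZT21 against 6.16 ± 1.03 at ZT3 and 7.55 ± 0.746 at ZT15 (SD, n = 4). It had no maximum at ZT9 (7.93 ± 0.437 CPM), which lay below ZT6 (8.67 ± 0.918) and ZT12 (8.40 ± 0.738). Agps, which makes ether lipids in peroxisomes, had folds of 1.11 at ZT9 and 1.23 at ZT21, and Tbc1d12, a regulator of Rab proteins, 1.14 and 1.38. Arxes1, a gene named for its expression in adipocytes, had 16.0 ± 4.91 CPM at ZT9, 13.3 ± 1.10 at ZT21, 7.80 ± 1.17 at ZT3 and 11.2 ± 0.928 at ZT15. Cep131, a centrosome protein, Nploc4, a cofactor of the segregase p97, and Srxn1, which repairs peroxiredoxins, had amplitudes of 0.22, 0.13 and 0.16. In Agps, Cep131 and Srxn1 the light-phase maximum lay at ZT6.

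The ZT0/ZT12 class was the smallest and held the steepest member. Its highest 12 h share was that of Rbm15, an RNA-binding protein of the complex that methylates adenosines in mRNA, located at chr3:107325421-107333673. In the light the mice had 20.9, 27.6, 21.4 and 22.5 CPM at ZT0, 21.3, 25.1, 24.8 and 25.3 at ZT3, 9.86, 17.1, 12.7 and 19.0 at ZT6 and 15.5, 22.4, 20.2 and 24.0 at ZT9. In the dark they had 18.7, 22.6, 20.1 and 25.9 CPM at ZT12, 20.2, 25.3, 24.7 and 19.7 at ZT15, 13.1, 17.1, 14.6 and 18.6 at ZT18 and 11.1, 13.6, 9.37 and 14.8 at ZT21. Its fitted peak (1.49 h) lay at the border of the ZT3/ZT15 class, and ZT3 and ZT15 were as high as ZT0 and ZT12. Low values at ZT6, ZT18 and ZT21 marked the course. Adam12, a membrane metalloprotease, had 49.9 ± 6.63 CPM at ZT0 and 50.8 ± 14.7 at ZT12, against 31.1 ± 7.13 at ZT6 and 38.3 ± 8.59 at ZT18 (SD, n = 4). Its highest mean lay outside the peak pair, at ZT21 (57.4 ± 7.16 CPM), and ZT15 was as low as ZT6 (31.7 ± 1.94 CPM), with 37.8 ± 4.46 at ZT3 and 47.6 ± 22.4 at ZT9. Tmem161b, Ggact and Elac1, a tRNA-processing enzyme, had small amplitudes between 0.11 and 0.13, and Gm5801, a predicted gene at a mean of 5.16 CPM, one of 0.18.

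Gm20721 (chr2:174330319-174346712) and Gm16537 (chr15:99715543-99724474) had large amplitudes, but their light-phase peak was far larger than the dark-phase one. Gm20721 had 41.3, 22.9, 18.1 and 13.6 CPM at ZT0 and 13.3, 10.3, 8.26 and 13.6 at ZT3, then 3.72, 1.503, 6.65 and 6.89 at ZT6 and 2.41, 6.27, 7.56 and 9.01 at ZT9. In the dark it had 6.81, 7.98, 8.04 and 4.29 CPM at ZT12, 5.55, 7.51, 6.77 and 7.64 at ZT15, 6.05, 6.14, 7.43 and 5.04 at ZT18 and 4.42, 5.52, 5.41 and 5.11 at ZT21. All mice of ZT0 lay above those of ZT6 and of every dark time point, while ZT12 overlapped with ZT6 and ZT18. The annotation places 99.0% of its exonic bases opposite to exons of Gnas (mean 2739 CPM), and 54.7% of those of Gm16537 opposite to Gpd1 (mean 7032 CPM). Where counting did not use the strand, reads of such pairs cannot be told apart. Gnas had 2886 ± 139 CPM at ZT0 and 2640.5 ± 641 at ZT6 (SD, n = 4), overlapping groups, where the means of Gm20721 were 24.0 ± 12.2 and 4.69 ± 2.57 CPM.

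Over all 199 members, 188 were protein-coding (94.5%, beside 94.7% of genes kept). Their exonic length had a median of 5278 bases, beside 4639 bases, and their mean level a median of 24.6 CPM, beside 26.9 CPM. Exons of 70 members (35.2%, beside 37.4%) overlapped with another gene.

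The time courses could be followed within the lanes, where lane does not differ. Within each of the 3 lanes, the time-point means followed the gene's 12 h curve in the same direction in 146 of 199 members (background 33.1%). This held for 72 of 78 of the ZT3/ZT15 class and 36 of 38 of ZT9/ZT21, and for 33 of 68 of ZT6/ZT18 and 5 of 15 of ZT0/ZT12. Lane 4 holds ZT18 and ZT21 alone. There the wave of the ZT6/ZT18 class falls, whereas its median deviation from the gene's mean was 0.07 (log2) at ZT18 and 0.10 at ZT21. The wave of the ZT0/ZT12 class rises, whereas its median was -0.09 at ZT18 and -0.14 at ZT21. A difference between the time points of 1 lane (edgeR, adjusted over all genes) was called for 74 members in lane 2 (background 13.3%), 12 in lane 3 (1.93%) and 36 in lane 4 (4.48%). These libraries also entered the choice of the members, so the counts are a description, and with 1 library left out they ran from 36 to 95, 0 to 12 and 9 to 19. When lane was taken out as an additive factor before the rule was applied, 48 of the 199 genes were still chosen.

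**Figure D5:**
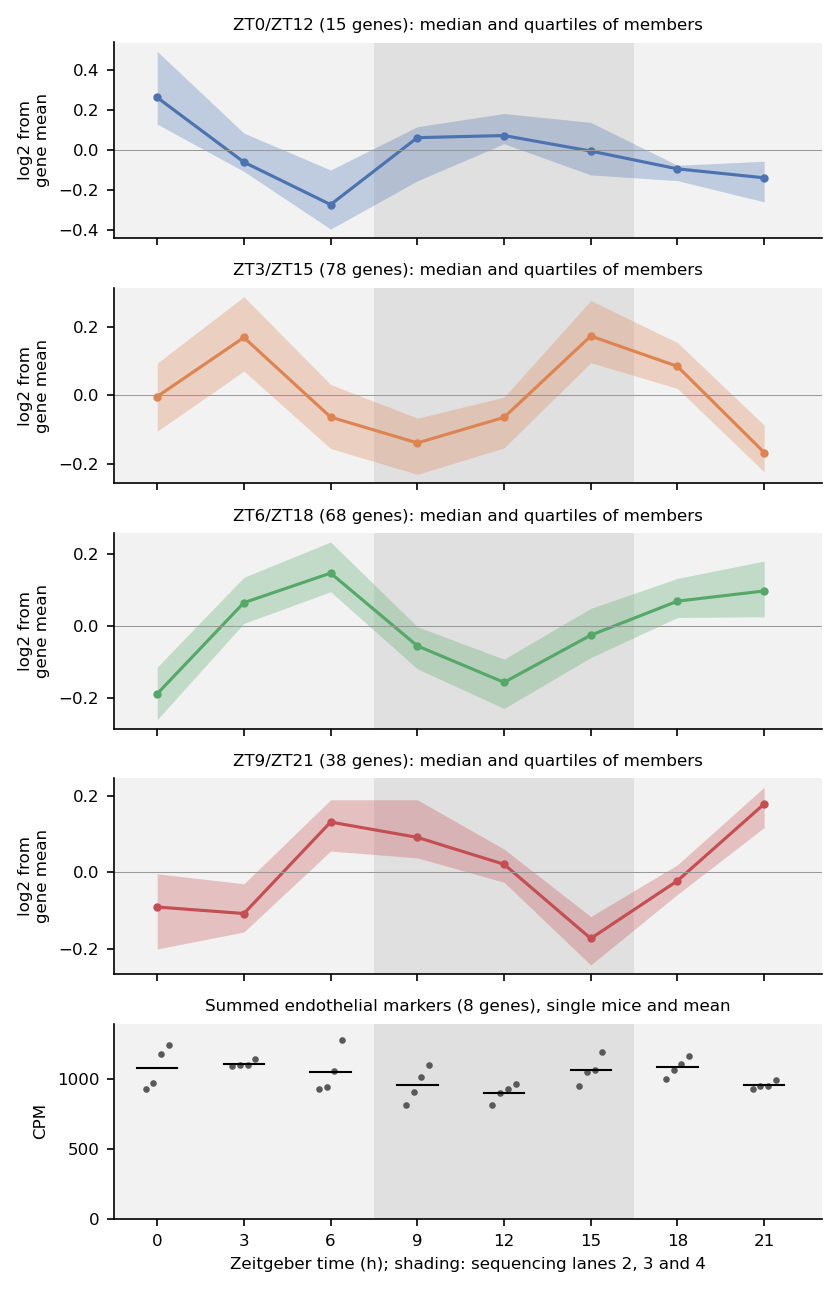
Median (line) and quartiles (band) of the members' time-point means, as log2(CPM + 1) from each gene's own mean, in the 4 peak classes, and below them the summed level of 8 endothelial markers (CPM, dots mice, bars means), all by Zeitgeber time; shading marks the sequencing lanes. The ZT3/ZT15 medians are 0.17 at both peaks and -0.14 and -0.17 at ZT9 and ZT21; the ZT6/ZT18 median is no lower at ZT21 than at ZT18.

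A count model of the 12 h wave was fitted to all 15505 genes that passed a filter on low counts, beside a 24 h wave in the same model (edgeR's quasi-likelihood test, Benjamini-Hochberg adjusted p under 0.05). It called 72 genes (0.464%), and 2732 at an unadjusted p under 0.05. Of the 72, 39 were members, and since the rule used the same contrast nothing is read from this. Of the other called genes, 14 were under 5 CPM, and the 19 of at least 5 CPM all had a 24 h share no smaller than their 12 h share. The smallest adjusted p of any gene outside the set was that of Ciart, a clock repressor with a sharp daily peak (24 h share 0.759, 12 h share 0.158, adjusted p = 0.0138 in edgeR). With lane as an additive factor 163 genes were called, of which 10 were among the 72. DESeq2's likelihood ratio test called 448 genes with the same model, 158 of them members, and with 1 library left out edgeR called between 13 (without ZT21 replicate 2) and 297 (without ZT9 replicate 3).

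Among 23 pathway lists, 681 tested genes were no members, and 6 of them passed the edgeR test of the 12 h wave (153 at an unadjusted p under 0.05). Over all 15505 tested genes, members included, it was 72 (2732 unadjusted). The count of 6 became 13 with the lane factor and 32 with DESeq2, and it ran from 2 (without ZT9 replicate 1, among others) to 19 (without ZT9 replicate 3) when 1 library was left out. The 6 genes were the clock genes Ciart, Arntl and Nfil3, the cell cycle gene Ccne1, the early response gene Zfp36l1 and the chaperone gene Dnajb4. In each of these genes the 24 h share was larger than the 12 h share. Arntl, the clock activator, had a 24 h share of 0.920 and a 12 h share of 0.0346. None of 19 clock genes was a member.

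Some lists had most of their tested genes, members included, in the phase of the largest class. The fitted 12 h peak lay around ZT3 and ZT15 in 43 of 61 splicing and mRNA processing genes, in 32 of 52 heat-shock genes and in 31 of 38 early response genes. It did so in 27 of 33 interferon-stimulated genes, a list with no member, beside 5191 of all 15505 genes. A peak time was fitted to every gene, whether or not it had a 12 h wave. Of the 33 interferon-stimulated genes, 5 had an unadjusted p under 0.05 in edgeR and none an adjusted one, beside 2732 unadjusted of all 15505. The median 12 h amplitude was 0.29 (log2) over the early response genes and 0.08 over the splicing genes, beside 0.07 over all tested genes. Jund, an early response gene just outside the limit at rank 203, had a 12 h share of 0.305 and an amplitude of 0.34. Of the 37 early response genes that are no members, 15 had an unadjusted p under 0.05 and 1 an adjusted p under 0.05 in edgeR. The counts were 18 and 0 of 56 splicing genes and 17 and 1 of 50 heat-shock genes outside the set. Over all 15505 tested genes they were 2732 and 72. ER chaperones (46 tested), ER to Golgi transport (45), ribosome biogenesis (50), translation factors (35) and lipogenesis (17) gave no member and no gene past the threshold. Over all genes, 0.464% of those tested were called and 199 of 10303 kept were members. At such shares, lists of this size would often hold none, so nothing is read from these lists.

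The spread of the mice around their time-point means enters the rule through the total variation. How genes vary together around these means was not used directly. With 4 mice per time point, however, genes that vary together also share errors of their means. A class can thus gather such genes, and the following values are not independent of the rule. The median correlation of the mice's deviations was 0.19 between genes of the ZT0/ZT12 class, 0.21 within ZT3/ZT15, 0.27 within ZT6/ZT18 and 0.15 within ZT9/ZT21, beside 0.09 over all pairs of genes kept. Between ZT3/ZT15 and ZT6/ZT18 it was 0.18, and between ZT0/ZT12 and ZT6/ZT18 -0.12. The values of different genes in a mouse share that mouse's library depth and tissue makeup. The 4 leading genes of the classes gave 6 relations, of which none passed after Benjamini-Hochberg adjustment over the 6 (permutation within time points, 100000 resamples, two-sided, 32 mice). The strongest was that of Sec61a2 and Oxsm, genes whose peaks lie 6 h apart (Pearson's r = -0.38, permutation p = 0.0389, adjusted p = 0.233, Spearman's rho = -0.37, permutation p = 0.0624, adjusted p = 0.374). Leaving out the 2 mice farthest from the median of Sec61a2 gave r = -0.51. In lane 2 r was -0.51 (exact permutation p = 0.163), in lane 3 -0.38 (exact p = 0.284) and in lane 4 -0.38 (exact p = 0.372). With TMM-scaled CPM r was -0.04.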

How the data were processed

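Total RNA of iBAT of 32 mice was sequenced. The authors mapped the reads to mm10 with GSNAP and counted them per gene with HTSeq (0.6.1). The deposited values are raw counts, 1 column per mouse. Whether counting used the strand is not given in the sources used here. Nothing in the labels ties equal replicate numbers together, and same-numbered mice did not deviate together (51 of 112 pairs of mice with the same number correlated above 0.1, range -0.809 to 0.863, median -0.0753).

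From the counts, CPM, harmonic fits of log2(CPM + 1) (pseudocount 1) and summaries were computed with Python 3.11.15, numpy 2.4.6, pandas 2.3.3 and scipy 1.17.1. The 12 h and 24 h waves were also fitted to the counts with edgeR 4.0.16 (quasi-likelihood test, TMM scaling, filterByExpr) in R 4.3.3, with DESeq2 1.42.0 as an alternative. The edgeR steps were tested on simulated counts. Adjusted p-values are Benjamini-Hochberg values over all genes tested, called under 0.05.

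Members and gene lists were chosen with earlier results of these data known. Named genes were every member of a pathway list, the 6 with the highest 12 h share per class, the 5 with the largest amplitude, and 2 genes on each side of the limit. Cdk12, Ccnt1, Ccnt2, Rel, Rela, Map3k7, Fadd, Dll4, Nrarp, Nrp2, Wnt5a, Ssrp1, Supt16, Msh6, Xpc, Ercc5, Polk, Prkag1 and Jund were named after their values were seen, as were the role groups. Gene positions and overlaps came from GENCODE vM21 on GRCm38, the assembly of mm10, although the authors' annotation release differed. The edgeR p-values of the 12 h wave rest on the variation left around the fitted waves. This holds the spread between mice of a time point and any differences between time points that the waves do not take up. Those of the single lanes rest on the spread between mice of a time point. Other scalings, filters, lane as a factor, a replicate block and leaving out each library were tried.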

Additional observations from a re-analysis of the deposited data

Results flagged for a closer look

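In 9 of 112 groups of 4 mice, 1 mouse stood far from the other 3 of its time point. Chance does this in about 1 group in 20. Sec61a2 had 34.1 CPM in ZT3 replicate 2, above the other mice of ZT3, and Ccnk had 22.1 CPM in ZT18 replicate 2, below its group. Rnf144b had 48.6 CPM in ZT3 replicate 2 and Rbm15 had 21.3 CPM in ZT3 replicate 1, both the lowest of their groups. Ttc23 was high in ZT0 replicate 4 (15.0 CPM) and in ZT9 replicate 3 (14.0 CPM), both trough or flank times of its wave. The summed endothelial markers reached 1150 CPM in ZT3 replicate 1, in a group with little spread. The summed skeletal muscle markers were high in ZT3 replicate 2 (8607 CPM) and in ZT6 replicate 2 (1963 CPM).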

How the results depend on the processing

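With lane as an additive factor 48 of the 199 genes were chosen again, 163 genes were called for the 12 h wave (10 shared with the 72), 21 members were called, and 13 pathway genes outside the set. DESeq2's likelihood ratio test called 448 genes, 158 members and 32 pathway genes. Over the 10303 genes of at least 5 CPM edgeR called 102 genes, 68 of them members. Without the 15 libraries of at least 1000 CPM muscle markers, an alternative added after seeing the data, 72 genes were chosen again. The 1 to 3 mice then left per time point did not overlap between peaks and troughs in 68 members (4.18% of all genes kept), a count not comparable with the 13 from 4 mice each. With column sums free of mitochondrial genes 7 members did not overlap (0.126% of genes kept). Counted wherever they lay, 2 maxima 9 to 15 h apart gave 174 members. Within lane 3, 7 members and 220 of 14826 genes were called with library size alone. The replicate block left 5 members and 107 genes in lane 3 and 2 members and 60 genes in lane 4, and gave 70 genes for the 12 h wave.

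The relations changed sign with TMM scaling for Rbm15 and Sec61a2 (-0.0148), Sec61a2 and Ttc23 (-0.21) and Ttc23 and Oxsm (0.23), and with the replicate block for Rbm15 and Sec61a2 (-0.033) and Rbm15 and Ttc23 (-0.16). The cause of these changes was not tested.

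With each library left out, 141 to 178 genes were chosen again, 13 to 297 genes, 7 to 115 members and 2 to 19 pathway genes were called for the 12 h wave, and 50 to 72 members had maxima at the peak pair. Lane 2 gave 36 to 95 members and 914 to 3316 genes, lane 3 0 to 12 and 58 to 392, and lane 4 9 to 19 and 190 to 404. Relations ran from -0.0218 to 0.254 (Rbm15 and Sec61a2), -0.0451 to 0.116 (Sec61a2 and Ttc23) and -0.24 to 0.0668 (Ttc23 and Oxsm). The 12 h count moved most without ZT9 replicate 3 (297) or 4 (240), ZT21 replicate 2 (13), 1 or 4 (16 each) and ZT15 replicate 4 (24). It also moved over 1.5 times without ZT9 replicate 1 (26) or 2 (31), ZT21 replicate 3 (31), ZT3 replicate 3 (34) and ZT15 replicate 3 (44) or 2 (47). Of 225 amplitudes of 45 named genes under other settings, 221 moved by less than the SD within time points, and 4 by more with the lane factor (Thtpa, Ccnl2, Hnrnpdl and Jmjd1c).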
